A study of Mus musculus with 4 samples.

Results

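Cycling T cells are T cells caught between DNA replication and division. They were taken here as barcodes with at least 300 detected genes, at most 10% mitochondrially encoded UMIs, no Cd79a UMI and at least 1 UMI over Cd3e, Cd3d and Cd3g, which also held at least 1 UMI in each of 4 or more of 8 genes of late S, G2 and M phase (Mki67, Top2a, Birc5, Cdk1, Ccna2, Ube2c, Nusap1 and Cenpf, called the rule genes below). A UMI is a tag that marks 1 captured RNA molecule. Of 46444 T cells, 851 (1.83%) met the rule, and they held 10.3% of all T cell UMIs. The cells were selected on the rule genes, so the levels of those genes and of every other gene against T cells without them are given as a description, with no test.

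The libraries came from live T cells sorted out of the draining lymph nodes of mice bearing MC38-OVA tumours, a colon carcinoma line that carries the model antigen ovalbumin, and each group was 1 SeekOne 5′ single-cell library. WT-DOX mice had the genotype labelled Control and received doxorubicin, and WT-CTRL mice had the same genotype and the control treatment. KO-DOX mice carried a knockout of PD-L1 (gene Cd274) restricted to dendritic cells and received doxorubicin, and KO-CTRL mice carried that knockout with the control treatment. The sources used here do not state the strain, age, dose, time, Cre driver or number of mice in a library. With 1 library in a group no difference between groups has a replicate, so the intervals below cover counting error only and no p-value is given for them.

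A dividing cell first copies its DNA in S phase, using the MCM helicase, the sliding clamp encoded by Pcna and a burst of histone synthesis, and then builds the mitotic machinery in G2, with cyclins A and B driving the kinase encoded by Cdk1. In a lymph node most T cells rest in G1 or G0, and division follows contact with antigen on dendritic cells. Doxorubicin poisons the topoisomerase encoded by Top2a and breaks DNA, and the p53 pathway answers such breaks with Cdkn1a, which encodes the CDK inhibitor p21.

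The promoters of the genes that define these cells carry the letters of known cell cycle elements, and 5 are shown because the results below turn on their genes: 3 rule genes, the S phase gene Mcm6 and the p53 target Cdkn1a. Each is the 300 bases from 250 before to 50 after the annotated start, from RefSeq (GRCm38.p6), read 5′ to 3′ on the gene's own strand. Capitals in the first 3 mark TTTGAA, the usual spelling of the cell cycle homology region, and CCAAT boxes, on either strand. In Mcm6 they mark GCGCCAAA, an E2F site spelling, here on the other strand as TTTGGCGC. In Cdkn1a they mark CATG, any 6 bases and CATG again, the cores of 2 adjoining p53 half-sites.
Cdk1 (chr10:69352863-69353162, minus strand): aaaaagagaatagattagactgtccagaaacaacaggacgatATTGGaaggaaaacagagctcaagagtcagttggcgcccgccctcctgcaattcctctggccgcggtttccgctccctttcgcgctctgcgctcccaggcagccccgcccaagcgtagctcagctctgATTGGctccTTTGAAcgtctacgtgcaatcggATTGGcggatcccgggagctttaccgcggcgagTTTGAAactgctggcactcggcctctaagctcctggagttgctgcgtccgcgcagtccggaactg
Top2a (chr11:99024140-99024439, minus strand): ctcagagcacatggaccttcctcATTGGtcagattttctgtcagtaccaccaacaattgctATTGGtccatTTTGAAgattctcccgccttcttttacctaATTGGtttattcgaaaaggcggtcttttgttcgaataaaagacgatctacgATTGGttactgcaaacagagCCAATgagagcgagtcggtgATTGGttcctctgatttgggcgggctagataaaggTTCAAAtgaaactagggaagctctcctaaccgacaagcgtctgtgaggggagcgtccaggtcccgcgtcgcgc
Ube2c (chr2:164769679-164769978, plus strand): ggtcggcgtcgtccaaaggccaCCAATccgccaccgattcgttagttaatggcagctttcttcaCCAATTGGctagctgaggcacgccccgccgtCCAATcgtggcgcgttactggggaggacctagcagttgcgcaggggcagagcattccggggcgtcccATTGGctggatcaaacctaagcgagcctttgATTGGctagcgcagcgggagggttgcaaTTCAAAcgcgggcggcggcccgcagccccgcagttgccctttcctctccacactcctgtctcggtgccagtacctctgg
Mcm6 (chr1:128359656-128359955, minus strand): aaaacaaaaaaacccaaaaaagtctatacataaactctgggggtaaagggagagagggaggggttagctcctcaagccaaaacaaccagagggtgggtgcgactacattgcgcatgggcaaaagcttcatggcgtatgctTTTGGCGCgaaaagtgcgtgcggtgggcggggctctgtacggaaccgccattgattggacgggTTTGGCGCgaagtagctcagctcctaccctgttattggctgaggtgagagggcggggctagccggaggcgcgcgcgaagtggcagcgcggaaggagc
Cdkn1a (chr17:29090729-29091028, plus strand, 1 of 2 listed promoters): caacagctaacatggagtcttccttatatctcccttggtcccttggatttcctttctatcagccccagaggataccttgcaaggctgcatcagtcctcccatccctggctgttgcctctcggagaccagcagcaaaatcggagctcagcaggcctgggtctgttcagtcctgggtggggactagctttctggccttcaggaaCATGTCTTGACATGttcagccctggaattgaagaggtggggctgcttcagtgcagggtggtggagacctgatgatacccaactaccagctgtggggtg
Cdk1 held 2 TTTGAA and 3 CCAAT matches, Top2a held 2 and 6, and Ube2c held 1 and 6, of which 1 pair overlaps in CCAATTGG. The table matched 7 of the 8 rule genes, 46 of 56 other G2 and M phase genes and 35 of 45 S phase genes. TTTGAA stood in the promoters of 5 of the 7 rule genes (71.4%), 32 of the 46 G2 and M phase genes (69.6%) and 6 of the 35 S phase genes (17.1%), against 20.2% of all 27025 genes in the table. At least 2 CCAAT boxes stood in 71.4%, 45.7% and 37.1% of the same sets, against 13.3% of all genes. GCGGGAAA or GCGCCAAA was found in 11 of 35 S phase genes (31.4%), in 1 of 46 G2 and M phase genes (2.17%) and in 1.8% of all genes. CATG with 6 bases before the next CATG was found in 1 of 27 matched p53 targets (3.7%), which was Cdkn1a, and in 0.833% of all genes.

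Over the T cells, 42701 had none of the rule genes and served as the comparison population, 2573 had 1, 219 had 2 and 100 had 3. Among cycling cells, 73 had 4 rule genes, 94 had 5, 104 had 6, 177 had 7 and 403 had all 8. Just inside the threshold, the 73 cells with 4 rule genes held 278 CPM (UMIs of a gene for every 1000000 UMIs of the cells summed) of Mki67, against 171 CPM in the 100 cells just outside with 3. Pcna read 320 CPM in cells with 4 rule genes and 333 CPM in cells with 3, whereas Ccnb1 read 27.7 CPM against 5.01 CPM. Cells with all 8 rule genes held 793 CPM of Mki67 and 114 CPM of Ccnb1. Mki67, which encodes the Ki-67 chromosome-surface protein, was found in 96.1 to 97.2% of cycling cells of a library, Top2a in 95.2 to 97.4%, and Birc5, which encodes survivin, in 93.4 to 98.7%. Cdk1 was the least often detected rule gene, in 69.6 to 72.9% of cycling cells.

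Cycling cells were much deeper than other T cells. Their median was 17888 UMIs in WT-DOX, 17507.5 in WT-CTRL, 17091.5 in KO-DOX and 18659 in KO-CTRL, against 2973 to 3069 in T cells with no rule gene, a ratio of 5.70 to 6.20. The 4 libraries held 10372 to 12959 barcodes and 37754389 to 47081849 UMIs. Cells with UMIs of Cd4 and of Cd8a or Cd8b1 together made up 122 of the 851 (14.3%), and after thinning every cell to 2000 UMIs they were 0.803 to 2.21% of cycling cells and 0.943 to 1.21% of other T cells. A doublet score above 0.25 marked 1 cycling cell of the 851. Barcode sequences recurred between libraries, 1313 over all pairs, and 52 of the 851 cycling cells had a barcode found in another library. No barcode was a cycling cell in more than 1 library. Of other cell types' markers, the B cell genes Ms4a1 and Igkc, the monocyte and macrophage genes Csf1r, C1qb and C1qc and the NK cell genes Ncr1, Klra8 and Klra4 were at 0 UMIs in the cycling cells of all 4 libraries. The marker lists as a whole were not at 0. The B cell list of 12 genes, 7 to 9 of them detected, summed to 474 to 837 CPM in cycling cells, against 204 to 255 CPM in T cells with no rule gene. The natural killer list of 8 genes, which includes Gzma and had 5 detected, summed to 397 to 874 CPM against 11.8 to 18.8 CPM. The myeloid and dendritic list of 17 genes, 6 to 9 of them detected, summed to 96.6 to 115 CPM against 64.1 to 72.7 CPM. The part of other cell types in the results was not tested. Cd274 read 47.6 CPM in cycling cells of WT-DOX, 48.6 in WT-CTRL, 52.1 in KO-DOX and 55.7 in KO-CTRL. The knockout is in dendritic cells, so this level in T cells checks nothing.

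Cycling cells were rarest in the WT-DOX library. They made up 155 of 11896 T cells in WT-DOX (1.30%, exact Clopper-Pearson 95% interval 1.11 to 1.52%), against 212 of 12214 in WT-CTRL (1.74%, 1.51 to 1.98%). They were 230 of 9903 in KO-DOX (2.32%, 2.03 to 2.64%), against 254 of 12431 in KO-CTRL (2.04%, 1.80 to 2.31%). The ratio of shares was 0.751 for WT-DOX over WT-CTRL (95% log interval 0.611 to 0.922) and 1.14 for KO-DOX over KO-CTRL (0.953 to 1.36). KO-CTRL over WT-CTRL came to 1.18 (0.983 to 1.41) and KO-DOX over WT-DOX to 1.78 (1.46 to 2.18). The doxorubicin ratio in KO mice divided by that in WT mice was 1.51 (1.15 to 1.99). Intervals of WT-DOX and WT-CTRL shares touch, and those of WT-DOX and KO-DOX do not. After thinning to 2000 UMIs, which left out 15.7 to 17.3% of T cells, the same 4 ratios were 0.670 (0.498 to 0.902), 1.04 (0.818 to 1.34), 1.26 (0.980 to 1.61) and 1.96 (1.46 to 2.63).

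By class, the WT-DOX share was below that of WT-CTRL in Cd8-only cells, which have at least 1 UMI over Cd8a and Cd8b1 and none of Cd4, and in cells with UMIs of neither Cd4 nor Cd8. In the cells of neither kind 9 of 3889 were cycling in WT-DOX (0.231%), against 22 of 4026 in WT-CTRL (0.546%), a ratio of 0.424 (0.195 to 0.919). Thinning to 2000 UMIs set the classes and the cycling cells again from the thinned counts, so each class then held other cells. Cycling cells of neither kind then numbered 31 in WT-DOX and 34 in WT-CTRL, a ratio of 0.966 (0.595 to 1.57). That ratio is of another set of cells, so it does not say whether the fall in the first set was kept. Of Cd8-only T cells, 71 of 5942 were cycling in WT-DOX (1.20%, 0.934 to 1.51%), against 103 of 5700 in WT-CTRL (1.81%, 1.48 to 2.19%), a ratio of 0.661 (0.490 to 0.893). In KO mice 104 of 4689 were cycling in KO-DOX (2.22%, 1.82 to 2.68%), against 105 of 5549 in KO-CTRL (1.89%, 1.55 to 2.29%), a ratio of 1.17 (0.896 to 1.53). The KO ratio over the WT ratio was 1.77 (1.19 to 2.65) in Cd8-only cells. Of Cd4-only T cells, 49 of 1788 were cycling in WT-DOX (2.74%, 2.03 to 3.61%), against 55 of 2147 in WT-CTRL (2.56%, 1.94 to 3.32%), a ratio of 1.07 (0.732 to 1.56). They were 75 of 1732 in KO-DOX (4.33%, 3.42 to 5.40%), against 91 of 2407 in KO-CTRL (3.78%, 3.06 to 4.62%). The Cd8-only ratio for WT-DOX over WT-CTRL divided by the Cd4-only ratio was 0.618 with an interval of 0.381 to 1.003, so a difference between the classes was not resolved at this depth. With the classes set again after thinning to 2000 UMIs, the direction of 2 of the class ratios for doxorubicin turned. For WT-DOX over WT-CTRL the thinned ratio was 0.494 (0.319 to 0.766) in Cd8-only cells and 0.771 (0.351 to 1.69) in Cd4-only cells. For KO-DOX over KO-CTRL it was 0.947 (0.620 to 1.44) in Cd8-only cells and 1.58 (0.935 to 2.67) in Cd4-only cells.

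**Figure D1:**
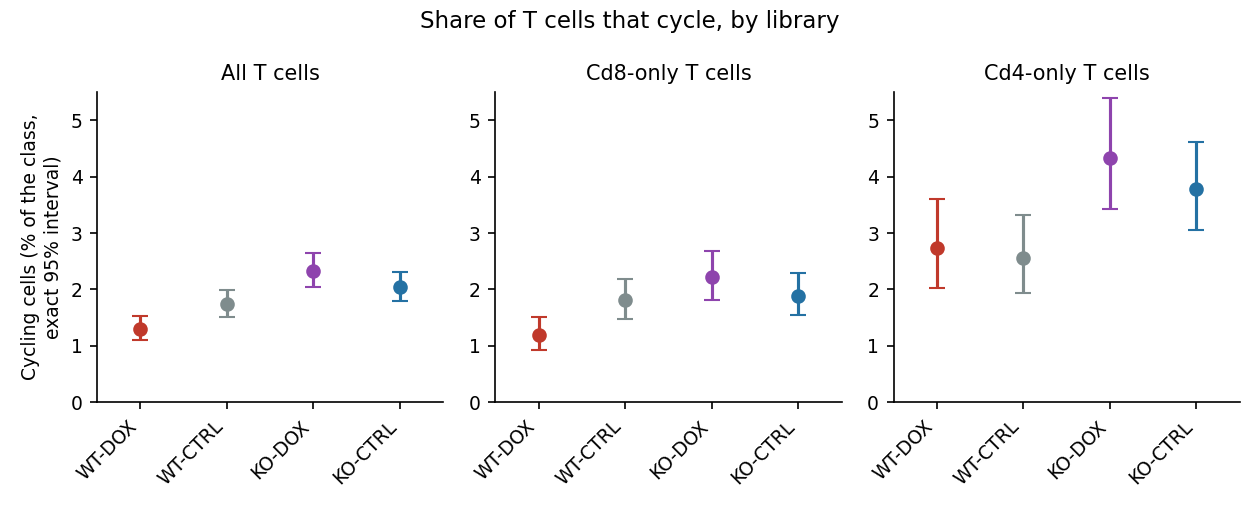
Share of T cells that were cycling (percent, y axis) in each library (x axis), in 3 panels for all T cells, Cd8-only cells and Cd4-only cells. Points are shares and bars exact 95% binomial intervals. In Cd8-only cells WT-DOX sat lowest at 1.20%, and in Cd4-only cells the KO libraries, at 4.33% and 3.78%, sat above the WT libraries.

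Within every library the Cd8-only cells were cycling less often than the Cd4-only cells. The difference, Cd8-only minus Cd4-only, was −1.55 percentage points in WT-DOX, −0.755 in WT-CTRL, −2.11 in KO-DOX and −1.89 in KO-CTRL, a mean of −1.58 (SD 0.595, n = 4). It was negative in 4 of 4 libraries, and the two-sided exact paired permutation test gave p = 0.13, the smallest p that 4 pairs allow. After thinning to 2000 UMIs, with the classes set again, the mean difference was −0.636 points (exact permutation p = 0.25). It was then negative in 3 of 4 libraries, WT-CTRL standing at 0.0858 points. With classes set by 2 UMIs the mean was −5.72 points. The classes rest on detection: 3171 to 4118 T cells of a library had UMIs of neither Cd4 nor Cd8, and 0.231 to 0.704% of these were cycling. Cycling cells were deeper, and the part of detection in the class difference was not tested.

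The phase make-up of cycling cells lay within counting error between libraries. Cells were compared by their UMIs in an S phase list of 45 genes and in 56 G2 and M phase genes outside the rule, after thinning to 4000 UMIs. More G2 and M than S phase UMIs were found in 71.9% of 153 cells in WT-DOX (exact interval 64.1 to 78.9%), 73.6% of 197 in WT-CTRL (66.9 to 79.6%), 73.6% of 216 in KO-DOX (67.2 to 79.4%) and 71.8% of 245 in KO-CTRL (65.8 to 77.4%). The median cell held 25 S phase UMIs in WT-DOX, WT-CTRL and KO-DOX and 26 in KO-CTRL, and 41 to 45 G2 and M phase UMIs. The 2 counts lay within 5 UMIs of each other in 11.2 to 16.7% of cells, and the rule genes admit few cells in G1. Per class, the share with more G2 and M phase UMIs was 74.5 to 78.1% in Cd8-only cells and 63.3 to 76.1% in Cd4-only cells.

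**Figure D2:**
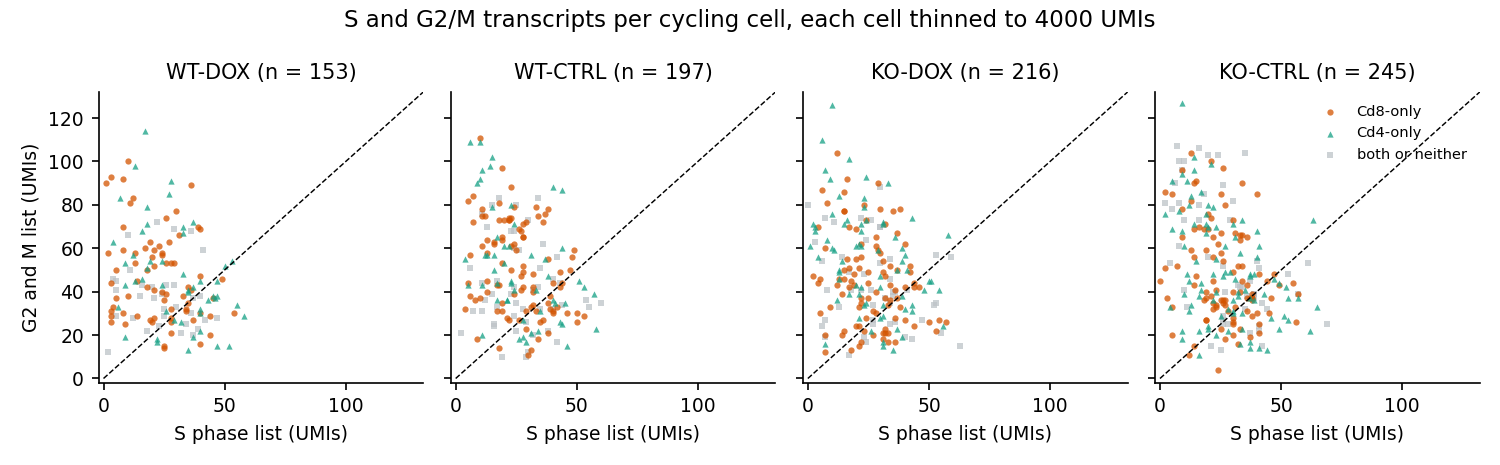
S phase list UMIs (x axis) against G2 and M phase list UMIs (y axis) in each cycling cell after thinning to 4000 UMIs, 1 panel for each library, with the line of equal counts. Each point is 1 cell. In the 4 panels 71.8 to 73.6% of cells lay above the line.

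Against T cells with no rule gene, the whole replication and mitosis programme was higher in cycling cells, and the genes of rest were lower. The background was 6002 genes past a filter of 20 CPM, of which 803 (13.4%) were at least 2-fold higher in cycling cells in all 4 libraries and 464 (7.73%) at least 2-fold lower. Since the contrast chose the cells, nothing is read from these counts beyond description. Of the S phase list, 38 of 39 genes past the filter were 2-fold higher in every library, with list medians of 3.09 to 3.22 on the log2(CPM + 1) scale. Pcna held 293 CPM in cycling cells of WT-DOX, 335 in WT-CTRL, 310 in KO-DOX and 340 in KO-CTRL, against 82.6 to 85.2 in cells with no rule gene. Mcm6 held 201 CPM in WT-DOX, 229 in WT-CTRL, 205 in KO-DOX and 232 in KO-CTRL, against 36.3 to 42.9. Rrm2, a subunit of the reductase that makes deoxynucleotides, stood at 435 to 500 CPM against 1.8 to 3.2, and Tyms, which makes thymidylate, at 226 to 256 CPM against 4.9 to 6.1.

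Of the 51 G2 and M phase genes past the filter, 49 were 2-fold higher in every library, with medians of 4.92 to 5.08. Ccnb1, the mitotic cyclin B1, read 80.8 CPM in WT-DOX, 96.9 in WT-CTRL, 94.1 in KO-DOX and 80.4 in KO-CTRL. Plk1, a mitotic kinase, read 126 to 145 CPM. All 30 replication-dependent histone genes past the filter were higher, with medians of 4.70 to 5.36, led in level by the linker histone gene Hist1h1b at 3187 CPM in WT-DOX, 3461 in WT-CTRL, 3259 in KO-DOX and 3770 in KO-CTRL, against 4.67 to 7.53. Among metabolic lists, 16 of 26 nucleotide synthesis genes, 6 of 13 glycolysis genes and 19 of 41 nuclear oxidative phosphorylation genes were 2-fold higher in every library. Ldha, which converts pyruvate to lactate, held 1188 to 1304 CPM in cycling cells against 386 to 449. Cox5a, a subunit of cytochrome c oxidase, held 588 to 641 CPM against 189 to 216.

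The 22 naive and quiescence genes ran the other way, with 18 of 22 at least 2-fold lower in every library and medians of −2.27 to −2.03. Klf2, a transcription factor that holds T cells at rest, read 213 CPM in cycling cells of WT-DOX, 231 in WT-CTRL, 214 in KO-DOX and 220 in KO-CTRL, against 716 to 858 in cells with no rule gene. Il7r, the receptor chain for the survival cytokine IL-7, read 64.7 to 118 CPM against 434 to 627. Lef1, a transcription factor of naive T cells, read 147 to 181 CPM against 754 to 844. Btg1, an antiproliferative gene, read 91.4 to 111 CPM against 522 to 580. Cdkn1b, which encodes the CDK inhibitor p27, read 98.8 CPM in WT-DOX, 105 in WT-CTRL, 110 in KO-DOX and 103 in KO-CTRL, against 226 to 244. All 10 mitochondrially encoded genes past the filter were lower, and 11 of 28 type I interferon genes were lower. Cxcr3, a chemokine receptor of activated T cells, was higher, at 65.0 to 85.5 CPM against 9.3 to 15.3. Bbc3, which encodes the pro-apoptotic protein PUMA, stood at 10.9 CPM in WT-DOX, 2.71 in WT-CTRL, 6.96 in KO-DOX and 4.57 in KO-CTRL, against 26.7 to 53.1.

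**Figure D3:**
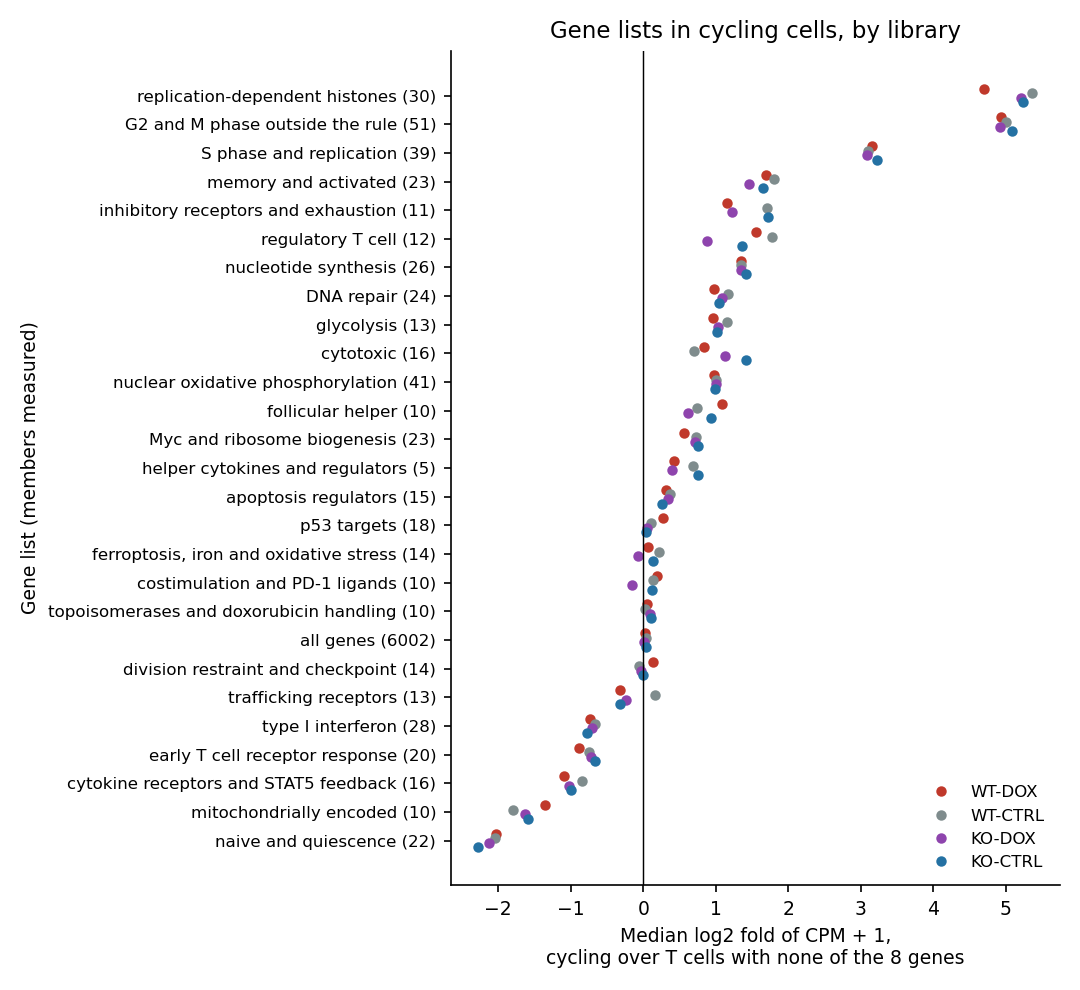
Median log2 fold of each gene list in cycling cells over T cells with none of the rule genes (x axis, log2(CPM + 1) scale), 1 point for each library. The histone list lies at 4.70 to 5.36, the G2 and M phase list at 4.92 to 5.08 and the naive list at −2.27 to −2.03, with the median of all genes at 0.01 to 0.04.

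Cycling Cd8-only and Cd4-only cells differed most in lineage genes. This contrast was not used to choose cycling cells, and it was tested with edgeR's quasi-likelihood test on 8 UMI sums with the library as a block, setting aside Cd4, Cd8a and Cd8b1, which defined the classes. Of 8789 genes, 892 (10.1%) were higher and 875 (9.96%) lower in Cd8-only cells at a Benjamini-Hochberg adjusted p under 0.05, 20.1% in all, whereas DESeq2 called 875 in all. Counts without 1 library ran between 1108, without KO-CTRL, and 1560, and stood at 1140 without WT-DOX. All genes had a median log2 fold of −0.01. The rule genes chose the cells, so their levels have no test here. Mki67 held 440 CPM in Cd8-only cells of WT-DOX, 599 in WT-CTRL, 492 in KO-DOX and 565 in KO-CTRL, against 860, 886, 900 and 771 CPM in Cd4-only cells of those libraries. Over the 8 rule genes the median log2 fold was 0.04, so Mki67 does not stand for them all. Of the S phase list 4 genes were higher and 1 lower of 45, and of the G2 and M phase list 5 were higher and 4 lower of 56. Pcna, Mcm6 and Ccnb1 did not pass the test, with log2 folds of −0.04, −0.18 and 0.07. Histones were lower in 7 of 50 and higher in none.

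The cytotoxic list set the Cd8-only cells apart, with 18 members higher and 3 lower of 23 (median log2 fold 2.98). Gzma, which encodes the protease granzyme A, had the largest fold: it held 1700 CPM in Cd8-only cells of WT-DOX, 1616 in WT-CTRL, 697 in KO-DOX and 974 in KO-CTRL, against 1.09, 3.17, 8.88 and 1.60 CPM in Cd4-only cells, a log2 fold of 8.46 (SE 0.23, edgeR adjusted p = 9.74e-15). The lowest Cd8-only value was far above the highest Cd4-only value. Nkg7, a cytotoxic granule protein gene, held 761 to 877 CPM in Cd8-only cells and 27.2 to 149 CPM in Cd4-only cells. Prf1, which encodes the pore former perforin, held 14.5 to 23.1 CPM against 0 to 2.2. Ccl5, a chemokine of effector and memory T cells, held 78.9, 108, 28.6 and 54.1 CPM in Cd8-only cells of WT-DOX, WT-CTRL, KO-DOX and KO-CTRL, against 3.2 to 13.1 CPM in Cd4-only cells (log2 fold 2.98, SE 0.21). Gzmb, the granzyme B gene, was higher in 3 of 4 libraries, at 243, 186, 177 and 253 CPM in Cd8-only cells, against 104, 197, 27.4 and 50.1 CPM in Cd4-only cells (log2 fold 1.52, SE 0.27, edgeR adjusted p = 0.000404).

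Genes of receptors and surface proteins were among the 12 largest folds on the Cd8-only side. Ly6c2, a marker of memory-type CD8 T cells, held 317 to 612 CPM in Cd8-only cells against 1.59 to 9.80 in Cd4-only cells (log2 fold 7.10, SE 0.23). Klrk1, which encodes the activating receptor NKG2D, held 60.8 to 128 CPM against 0 to 4.03 (6.73, SE 0.38), and Klrd1, which encodes CD94, held 86.9 to 141 CPM against 1.07 to 5.65 (5.23, SE 0.24). Ifitm1, an interferon-induced membrane protein gene, held 341 to 640 CPM against 0 to 17.8 (6.92, SE 0.38), and Plac8 held 73.9 to 101 CPM against 0 to 2.38. Ncald and Klre1 had no UMI in Cd4-only cells and were at least 34.5-fold and 19.0-fold higher in Cd8-only cells, taking 3 UMIs over the class as the floor. Gm44174, Adgrg5, Clec12a and the chemokine gene Ccl3 had 1 or 2 UMIs over all Cd4-only cells. Of 41 nuclear oxidative phosphorylation genes 24 were higher in Cd8-only cells and none lower, with a median of only 0.29; Cox5a held 650 to 755 CPM against 518 to 557. Memory and activation genes were higher in 16 and lower in 3 of 25.

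Regulatory and follicular helper genes marked the Cd4-only cells. Of the regulatory list 14 of 16 were lower in Cd8-only cells and none higher, and of the follicular helper list 14 of 15. Foxp3, the transcription factor of regulatory T cells, held 2.04, 0, 0.414 and 2.99 CPM in Cd8-only cells of WT-DOX, WT-CTRL, KO-DOX and KO-CTRL, against 51.2, 52.3, 43.6 and 40.5 CPM in Cd4-only cells (log2 fold −4.84, SE 0.35, edgeR adjusted p = 7.85e-09). Maf, a transcription factor of helper cells, held 2.72 to 12.7 CPM against 145 to 216 (−4.32, SE 0.21). Il21, the follicular helper cytokine gene, held 0 to 4.14 CPM against 9.80 to 39.5 (−4.28, SE 0.42), and Sostdc1 held 0 to 8.84 CPM against 17.4 to 101 (−4.48, SE 0.42). Tnfrsf4, which encodes OX40, held 15.9 to 30.2 CPM against 327 to 422 (−3.80, SE 0.14). Il2ra, the high-affinity IL-2 receptor chain, held 35.4 to 73.9 CPM against 181 to 326, and Tox2, a follicular helper factor, held 7.5 to 15.0 CPM against 23.8 to 96.0. Areg, which encodes amphiregulin, a tissue repair ligand, was lower by a log2 fold of −4.15 (SE 0.22), and Penk, the proenkephalin gene, by −4.24 (SE 0.31). Rln3, Kif13a, Angptl2, Cybb and Lgals7 completed the 12 largest falls.

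Checkpoint genes were mostly on the Cd4-only side. Of the inhibitory receptor list 2 were higher and 8 lower of 12, and of the costimulation list 2 were higher and 10 lower of 13. Tigit held 18.4 to 32.3 CPM in Cd8-only cells against 154 to 270 in Cd4-only cells, and Ctla4 76.8 to 98.1 CPM against 328 to 419. Pdcd1, which encodes PD-1, held 32.0, 31.4, 40.1 and 37.3 CPM in Cd8-only cells of WT-DOX, WT-CTRL, KO-DOX and KO-CTRL, against 77.3, 46.8, 67.0 and 58.7 CPM in Cd4-only cells (log2 fold −0.64, SE 0.14, edgeR adjusted p = 0.00302), a call that DESeq2 did not make. Division restraint genes were lower in 9 and higher in 1 of 21; Cdkn1b held 72.7 to 95.2 CPM in Cd8-only cells against 115 to 140 (−0.42, SE 0.11), and Cdkn1a did not pass the test (−0.61, SE 0.26, edgeR adjusted p = 0.109).

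**Figure D4:**
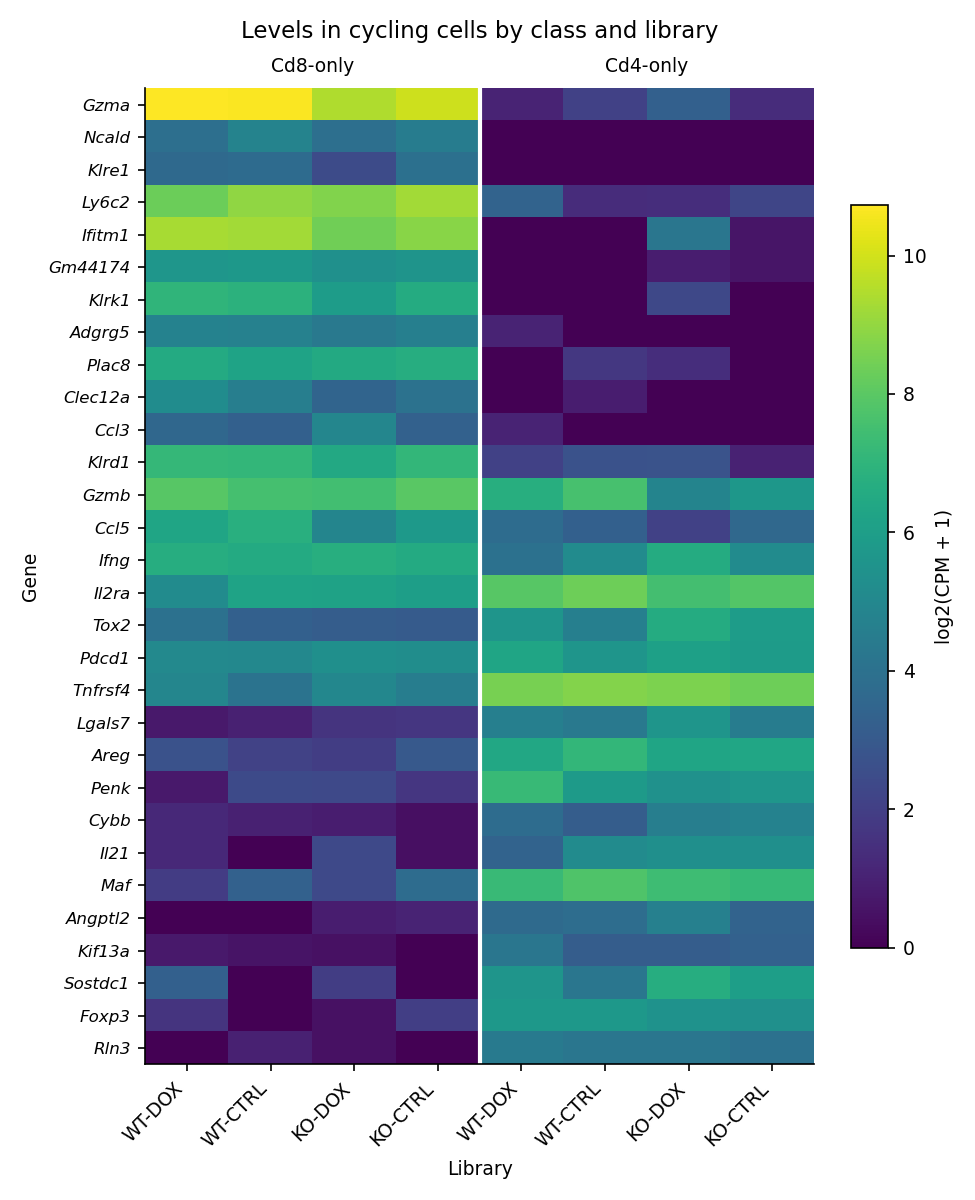
Level of named genes (rows) as log2(CPM + 1), shown by colour, in Cd8-only cycling cells (left 4 columns) and Cd4-only cycling cells (right 4 columns) of each library. Gzma, Ly6c2 and Klrk1 are high on the left, and Foxp3, Maf and Tnfrsf4 on the right.

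For 1310 of 11736 genes (11.2%) the Cd8-only to Cd4-only difference in cycling cells was unlike that in T cells with no rule gene, by edgeR's interaction test on 16 sums. The log2 fold of Cd8-only over Cd4-only cells was higher in cycling cells for 1004 genes (8.55%) and lower for 306 (2.61%), a sign that does not say in which population the classes were further apart. Leaving out 1 library gave between 674, without KO-CTRL, and 928 calls, with 821 without WT-CTRL and 796 without KO-DOX. The split moved with them: it was 467 higher and 354 lower without WT-CTRL, 490 and 306 without KO-DOX, 533 and 141 without KO-CTRL, and 670 and 663 with no filter on low counts. The memory list had 16 members with a higher fold in cycling cells and none with a lower one of 25 (median interaction 1.09), the glycolysis list 9 and none of 18 (0.36), and the oxidative phosphorylation list 14 and none of 41 (0.23), against a median of 0.06 over all genes. Lists on the Cd4-only side leaned the same way, the follicular helper list with 6 higher and none lower of 17 (0.60) and the regulatory list with 6 higher and 3 lower of 20 (0.49). Gzma was among the 8 largest, with a log2 interaction of 5.20 (SE 1.09): it held 5.28 to 13.5 CPM in Cd8-only cells with no rule gene and 0 to 1.88 CPM in their Cd4-only counterparts. Gzma lost the call without KO-CTRL. It had 0 UMIs in Cd4-only cells with no rule gene of WT-DOX, so its fitted size depends on the prior count. Ifitm1 (6.48, SE 1.12) and Mmp10 (6.51, SE 0.69) were also named, but both had 0 UMIs in cycling Cd4-only cells of at least 1 library, so the same limit holds for them. Nrgn (5.71, SE 0.49) turned round, with 10.2 to 34.0 CPM in cycling Cd8-only cells against 5.65 to 9.80 in cycling Cd4-only cells, and 0.147 to 1.22 CPM in Cd8-only cells with no rule gene against 4.69 to 14.7 in their Cd4-only counterparts. The other genes at either end, Ncald, Avil, Ripor3 and Fbxl12os above and Prss2, Pcsk1, 5830418P13Rik, Dzank1, Gm14963, Trav6-4, Nuf2 and Trav1 below, also had 0 UMIs in at least 1 class of a library, and no size is given for them.

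Cells with Foxp3 were a large part of dividing Cd4-only cells. A Foxp3 UMI was found in 21 of 49 cycling Cd4-only cells of WT-DOX (42.9%, 28.8 to 57.8%), 25 of 55 of WT-CTRL (45.5%), 24 of 75 of KO-DOX (32.0%) and 30 of 91 of KO-CTRL (33.0%). The share was 2.92 to 3.34% in Cd4-only cells with no rule gene and 0 to 1.90% in cycling Cd8-only cells, which should lack Foxp3. Median depth was 15180 to 17948 UMIs in cycling Cd4-only cells and 15214 to 23528 UMIs in cycling Cd8-only cells. Thinned to 2000 UMIs, it was 12.2, 12.7, 9.59 and 6.59% in cycling Cd4-only cells of WT-DOX, WT-CTRL, KO-DOX and KO-CTRL, against 1.84 to 2.09% in those with no rule gene. Read the other way, 22.6% of all Foxp3-positive Cd4-only T cells were cycling in WT-DOX (21 of 93), 22.9% in WT-CTRL (25 of 109), 26.4% in KO-DOX (24 of 91) and 24.6% in KO-CTRL (30 of 122). These shares rest on unthinned detection in populations of unequal depth. After thinning, the Foxp3-positive cells were 6 cycling and 26 with no rule gene in WT-DOX, 7 and 35 in WT-CTRL, 7 and 24 in KO-DOX, and 6 and 34 in KO-CTRL. Tox2 was found in 24.5% of cycling Cd4-only cells of WT-DOX, 14.5% of WT-CTRL, 37.3% of KO-DOX and 30.8% of KO-CTRL, against 8.45 to 13.5% of cycling Cd8-only cells. Cxcr5, the follicle homing receptor gene, was found in 6 of 49 cycling Cd4-only cells of WT-DOX, 11 of 55 of WT-CTRL, 20 of 75 of KO-DOX and 18 of 91 of KO-CTRL (12.2 to 26.7%), and in 1.10 to 5.48% after thinning, near the 2.09 to 3.60% of cells with no rule gene.

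Among cycling Cd8-only cells, Gzmb was found in 32.4% in WT-DOX, 35.9% in WT-CTRL, 32.7% in KO-DOX and 41.9% in KO-CTRL, against 0.48 to 1.07% of Cd8-only cells with no rule gene. After thinning the shares were 15.5, 20.2, 23.5 and 22.3% in WT-DOX, WT-CTRL, KO-DOX and KO-CTRL, against 0.27 to 0.71%. Of all Gzmb-positive Cd8-only T cells, 33.8% were cycling in WT-DOX (23 of 68) and 53.6% in WT-CTRL (37 of 69), and 34.3% in KO-DOX (34 of 99) and 56.4% in KO-CTRL (44 of 78). The exact intervals are 22.8 to 46.3% and 41.2 to 65.7% for the WT libraries, and 25.1 to 44.6% and 44.7 to 67.6% for the KO libraries, which overlap in WT and are narrowly apart in KO. These shares too rest on unthinned detection. After thinning, the Gzmb-positive cells were 11 cycling and 27 with no rule gene in WT-DOX, 20 and 13 in WT-CTRL, 24 and 28 in KO-DOX, and 23 and 17 in KO-CTRL. For Ccl5, 5.10 to 6.72% of Ccl5-positive Cd8-only cells were cycling. Pdcd1 was found in 26.8 to 45.2% of cycling Cd8-only cells, against 0.39 to 0.68% of those with no rule gene, and after thinning in 4.23 to 9.71% against 0.196 to 0.303%. Trdc, the gamma delta receptor constant gene, stayed at 0.5 to 2.3 CPM over all cycling cells.

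Gzma divided the cycling Cd8-only cells into a granzyme-rich minority and the rest, a split chosen after its values were seen and given with no test. At least 2 Gzma UMIs were found in 20 of 71 cells in WT-DOX (28.2%), 33 of 103 in WT-CTRL (32.0%), 22 of 104 in KO-DOX (21.2%) and 32 of 105 in KO-CTRL (30.5%). Their median was 134.5 Gzma UMIs in WT-DOX, 57 in WT-CTRL, 44 in KO-DOX and 35 in KO-CTRL, and the 10 richest cells held 66.4 to 89.6% of a library's Gzma UMIs. Gzmb was found in 84.8 to 100% of Gzma-positive cells against 5.88 to 17.1% of the other cycling Cd8-only cells. Klrc1, which encodes NKG2A, was found in 84.8 to 100% against 15.1 to 29.3%, and Anxa1 in 66.7 to 90.0% against 7.84 to 13.4%. Dapl1, a gene of naive and early memory CD8 cells, went the other way, in 5.0 to 22.7% against 53.7 to 62.7%, and so did Tox, in 5 of 20 cells in WT-DOX, 10 of 33 in WT-CTRL, 11 of 22 in KO-DOX and 11 of 32 in KO-CTRL, against 67.1 to 82.2%. In all 4 libraries the shares of the 2 kinds of cell differed in these directions, but no intervals were compared. Tox in KO-DOX differed least for that gene, at 11 of 22 cells against 67.1%. Not every gene looked at went 1 way. Pdcd1 was found in 39.4% of Gzma-positive cells against 32.9% of the others in WT-CTRL, and in 43.8% against 45.2% in KO-CTRL.

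Genes that differed between libraries were called where the exact Poisson 95% intervals of CPM were apart and the fold of CPM + 1 was at least 1.5 in either direction, with a mean of at least 20 CPM. Within a class the mean had to be at least 50 CPM. WT-DOX against WT-CTRL had 104 of 5917 genes called (1.76%), 41 higher (0.693%) and 63 lower (1.06%). KO-DOX against KO-CTRL had 38 of 5842 (0.65%), 21 higher (0.359%) and 17 lower (0.291%). KO-CTRL against WT-CTRL had 60 of 5905 (1.02%), 28 higher (0.474%) and 32 lower (0.542%), and KO-DOX against WT-DOX had 92 of 5848 (1.57%), 41 higher (0.701%) and 51 lower (0.872%). Each library stands in 2 of the 4 comparisons, so they are not independent. The intervals count UMIs as independent, although many can come from 1 cell. A call can therefore reflect which cells were captured. It does not show that the libraries differ beyond those cells, or that the treatments do.

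Some p53 targets were higher in the doxorubicin libraries, and their levels were highest in Cd4-only cycling cells of WT-DOX. In WT mice 4 of 19 members were called higher and none lower (median log2 0.15), and in KO mice 2 of 18 (0.18). Cdkn1a held 63.1 CPM in WT-DOX (54.6 to 72.6), against 21.0 CPM in WT-CTRL (17.0 to 25.7), a log2 fold of 1.54. In KO mice it held 36.4 CPM in KO-DOX (31.0 to 42.4), against 12.6 CPM in KO-CTRL (9.80 to 15.9), a log2 fold of 1.46. T cells with no rule gene held 10.96 CPM in WT-DOX against 9.49 in WT-CTRL, and 8.13 CPM in KO-DOX against 9.24 in KO-CTRL. Ccng1, which encodes the p53 feedback cyclin G1, held 206 CPM in WT-DOX against 106 in WT-CTRL (0.95), and 158 CPM in KO-DOX against 101 in KO-CTRL (0.65). Bax, the pro-apoptotic pore protein gene, held 229 CPM in WT-DOX against 131 in WT-CTRL (0.80), and Ddit4, a stress inhibitor of mTORC1, held 70.2 against 43.4 (0.68). In T cells with no rule gene these genes were also higher in WT-DOX, Bax at 129 CPM against 101 in WT-CTRL and Ddit4 at 38.6 against 20.3. The summed p53 list in those cells of the Cd4-only class was 1603 CPM in WT-DOX against 1357 in WT-CTRL, and 1631 CPM in KO-DOX against 1450 in KO-CTRL.

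Within Cd4-only cells, WT-DOX against WT-CTRL had 153 of 3434 genes called (4.46%), 64 higher (1.86%), and the p53 list had 5 of 10 higher and none lower (median 0.58). Cdkn1a held 107 CPM in WT-DOX (86.6 to 130) against 23.0 in WT-CTRL (15.4 to 33.0), and 51.6 CPM in KO-DOX against 7.5 in KO-CTRL. Ccng1 held 325 CPM in WT-DOX against 130 in WT-CTRL, and 191 CPM in KO-DOX against 113 in KO-CTRL. Bax held 279 CPM against 127, Ddit4 82.8 against 41.2 and Btg2, an antiproliferative gene, 146 against 95.1 in WT-DOX and WT-CTRL. In WT-DOX, 1 cell gave 28.6% of the Cdkn1a UMIs and 20.5% of the Ccng1 UMIs of this class. Without the cell with most UMIs of the list in each library 3 of 10 members were called, and when cells were weighted equally 3 of 12 (settings added after the data were seen). In KO mice 55 of 3426 genes were called in Cd4-only cells (1.61%), 42 higher (1.23%), and 1 of 8 p53 targets, Ccng1. Cdkn1a was not among the 8, since its mean over KO-DOX and KO-CTRL was under the 50 CPM needed within a class. Its missing call there does not mean that it was unchanged. In Cd8-only cells Cdkn1a held 37.4 CPM in WT-DOX against 18.4 in WT-CTRL and 21.9 CPM in KO-DOX against 15.3 in KO-CTRL, also under that filter. KO-DOX against WT-DOX had 87 of 3445 genes called in Cd4-only cells (2.53%), 46 lower (1.34%), and 3 of 10 p53 targets were lower, Cdkn1a, Ccng1 and Rps27l.

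Histone genes were lower in WT-DOX, and there in Cd8-only cells. Over all cycling cells 13 of 35 replication-dependent histones were called lower in WT-DOX than in WT-CTRL and none higher (median −0.43), and 4 of 35 in KO-DOX against KO-CTRL (−0.21). In Cd8-only cells WT-DOX against WT-CTRL had 112 of 3068 genes called (3.65%), 83 lower (2.71%), and 14 of 20 histones were lower and none higher (−0.86). Their summed level in Cd8-only cells was 8541 CPM in WT-DOX against 12807 in WT-CTRL, and 10562 CPM in KO-DOX against 12304 in KO-CTRL. In Cd4-only cells it was 15382 CPM in WT-DOX against 14022 in WT-CTRL, and 14283 CPM in KO-DOX against 14219 in KO-CTRL. The Cd8-only cells of WT-DOX had the lowest of these 8 sums. Hist1h1e, a linker histone gene, held 775 CPM in Cd8-only cells of WT-DOX (731 to 821) against 1356 in WT-CTRL (1306 to 1407). Hist1h3c, a histone H3 gene, held 457 CPM (423 to 493) against 794 (756 to 833) in Cd8-only cells of WT-DOX and WT-CTRL. Histone calls in Cd8-only cells numbered 15 of 19 without the cell richest in histone UMIs in each library and 19 of 22 when cells were weighted equally.

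No member of the S phase list or the G2 and M phase list was called in either doxorubicin comparison over all cycling cells. The S phase list summed to 6520 CPM in all cycling cells of WT-DOX against 6614 in WT-CTRL, and to 6665 CPM in KO-DOX against 6917 in KO-CTRL. The classes moved in opposite directions in WT mice. In Cd8-only cells the S phase sum was 5854 CPM in WT-DOX against 6552 in WT-CTRL, and 6697 in KO-DOX against 6669 in KO-CTRL. In Cd4-only cells it was 7688 CPM in WT-DOX against 6752 in WT-CTRL, and 6486 in KO-DOX against 7007 in KO-CTRL. Over all cycling cells the G2 and M phase list summed to 10796 CPM in WT-DOX against 11665 in WT-CTRL, and to 11338 CPM in KO-DOX against 11526 in KO-CTRL. In Cd8-only cells KO-DOX against WT-DOX had 170 of 3037 genes called (5.6%), 122 higher (4.02%) and 48 lower (1.58%), with 12 of 22 histones higher and 1 lower (median 0.62). That median was 0.56 without the richest cell of each library, with 8 of 18 higher. In KO-DOX against KO-CTRL 30 of 3088 genes were called in Cd8-only cells (0.972%), and 5 of 25 histones were lower and 1 higher.

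Genes of the Myc and ribosome biogenesis list were lower in Cd4-only cells of WT-DOX, with 9 of 18 lower and none higher against WT-CTRL (median −0.56), beside a background of 89 lower calls (2.59%). Ncl, which encodes nucleolin, held 952 CPM in Cd4-only cells of WT-DOX (890 to 1017) against 1831 in WT-CTRL (1757 to 1908). Hspd1, the mitochondrial chaperonin gene, held 454 CPM (412 to 500) against 947 (894 to 1002), with 1 WT-CTRL cell giving 26.1% of its UMIs. Nop56 and Nop58, core proteins of the box C/D RNA modifying particles, held 120 and 210 CPM in WT-DOX against 197 and 322 in WT-CTRL. The count was 8 of 18 without the cell richest in the list in each library and 4 of 18 when cells were weighted equally. In Cd8-only cells KO-DOX against WT-DOX had 8 of 19 members higher (0.50), among them Npm1, Ncl and Hspd1, and 4 of 19 when cells were weighted equally. The summed level in Cd8-only cells was 8088 CPM in WT-DOX against 9046 in WT-CTRL, and 11350 CPM in KO-DOX against 9916 in KO-CTRL.

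**Figure D5:**
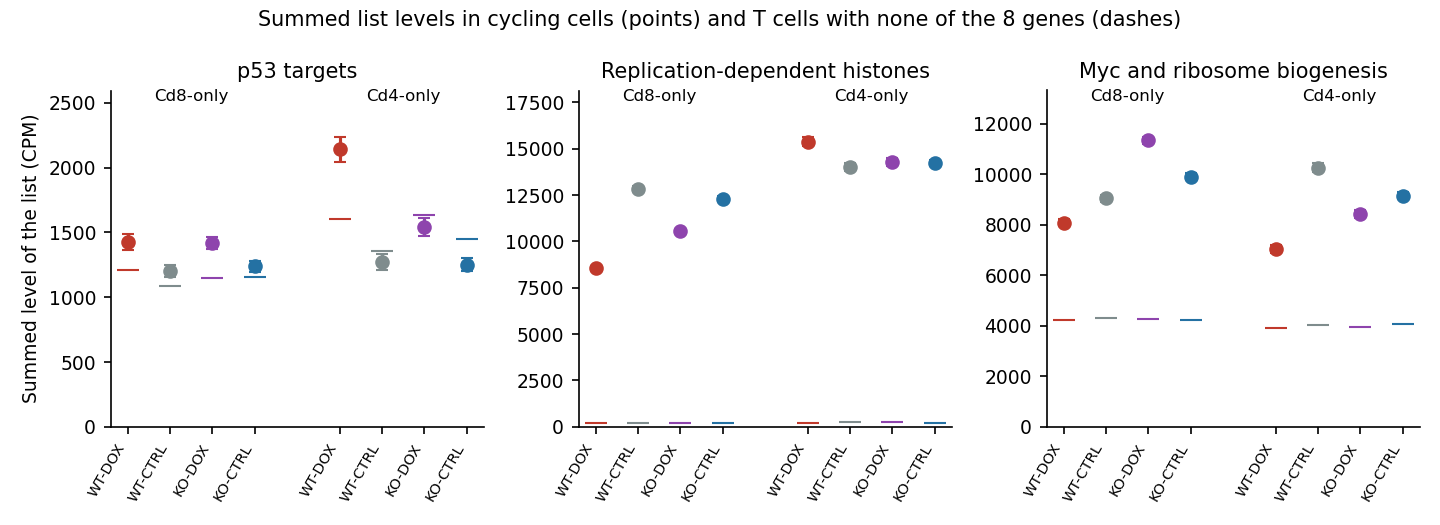
Summed level (CPM, y axis) of the p53 targets, the replication-dependent histones and the Myc and ribosome biogenesis list in Cd8-only and Cd4-only cycling cells of each library (x axis). Points are cycling cells with exact Poisson 95% intervals and dashes are T cells of the same class with no rule gene. The p53 targets stand highest in Cd4-only cells of WT-DOX, at 2141 CPM against 1270 in WT-CTRL, and histones lowest in Cd8-only cells of WT-DOX, at 8541 CPM.

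Mitochondrially encoded genes differed between libraries in opposite directions. They held few UMIs, 0.0238 to 0.0419% of those of cycling cells and 0.0706 to 0.111% of those of T cells with no rule gene. In WT-DOX against WT-CTRL 3 of 6 were higher (median 0.46), in KO-DOX against KO-CTRL 3 of 5 were lower (−0.66), and in KO-DOX against WT-DOX 6 of 6 were lower (−0.75). mt-Cytb, the cytochrome b gene, held 94.0 CPM in WT-DOX against 60.1 in WT-CTRL, and 55.0 CPM in KO-DOX against 87.7 in KO-CTRL. In T cells with no rule gene it held 226 CPM in WT-DOX against 219 in WT-CTRL, and 149 CPM in KO-DOX against 224 in KO-CTRL. KO-DOX had the lowest mt-Cytb in cells of either kind.

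Of the other genes called in WT-DOX against WT-CTRL, Dapl1 held 192 CPM against 114 (0.75) and the naive gene Actn1 63.1 CPM against 40.4 (0.63). Il7r held 118 CPM against 78.0 (0.60). Cdk8, a Mediator kinase gene, was lower, at 388 CPM against 1117 (−1.52), and Rps27rt, Afg3l1 and Pdcd11 were lower by −0.88, −0.81 and −0.83. These 4 were also lower in T cells with no rule gene, where Cdk8 held 966 CPM in WT-DOX against 1259 in WT-CTRL and Rps27rt 258 against 528. Zbed5 was found almost only in WT-DOX, at 498 CPM against 2.03 in WT-CTRL, and in T cells with no rule gene at 236 against 0.90. It held 1.12 CPM in cycling cells of KO-DOX and 0.548 in KO-CTRL. With 1 library in a group and no strain stated, a difference of genetic background between libraries cannot be told apart from one of treatment or genotype. Agbl4 was higher, at 92.7 CPM against 44.5 (1.04). Klrg1, an effector receptor gene, held 14.8 CPM against 36.8 (−1.26), Klrc1 51.2 against 83.4 (−0.69) and Egr1, an immediate early gene of receptor signalling, 14.5 against 32.3 (−1.11). Tox2 held 27.0 CPM against 13.8 (0.92), and Maf 67.9 against 105 (−0.63).

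In KO-DOX against KO-CTRL, the antigen presentation gene Cd74 held 480 CPM against 227 (1.08). MHC class II UMIs lay mostly in a few cells, 96.0% of them in 14 cycling cells of KO-DOX and 91.8% in 7 of KO-CTRL. Whether Cd74 lay in the same cells was not tested. The chemokine gene Cxcl10, a ligand of Cxcr3, held 84.0 CPM in KO-DOX against 54.4 in KO-CTRL (0.62). Nr4a1, an early gene of T cell receptor signalling, held 75.4 CPM against 48.2 (0.64), Egr1 32.1 against 17.3 (0.85) and Il7r 97.7 against 64.7 (0.59). Mt1, a metallothionein gene, held 79.9 CPM against 124 (−0.62), and reversed when cells were weighted equally. The interferon regulator Irf7 held 22.2 CPM against 40.9 (−0.85). The variable segments Trbv16 and Trbv2 were higher and Trbv20 and Trbv31 lower.

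KO-CTRL against WT-CTRL had 3 of 25 type I interferon genes higher and none lower (median 0.20). Isg15, a ubiquitin-like interferon product, held 100 CPM in KO-CTRL (92.2 to 109) against 47.9 in WT-CTRL (41.7 to 54.8), a log2 fold of 1.05, and in T cells with no rule gene 116 against 66.7. Irf7 held 40.9 CPM against 23.95 (0.75). Gzmk, a granzyme gene, held 74.5 CPM against 43.4 (0.77), Cd160, an inhibitory receptor gene, 63.2 against 37.5 (0.74) and Tox2 29.6 against 13.8 (1.05). Hnrnpa0, Stk39 and Agbl4 were also higher. Klrg1 held 11.1 CPM against 36.8 (−1.64), Areg 40.7 against 73.7 (−0.84), the integrin gene Itgae 28.9 against 51.1 (−0.80) and the chemokine receptor gene Ccr2 33.6 against 53.8 (−0.66), and Arl5a and Cdk8 were lower too. In Cd8-only cells 38 of 3132 genes were called (1.21%), 19 higher (0.607%) and 19 lower (0.607%), and 5 of 26 histones were higher and 1 lower, though 1 cell gave 24.8 to 52.5% of the KO-CTRL UMIs of the 5. Without the richest cell of each library 1 was higher and 1 lower of 24. In Cd4-only cells 58 of 3404 genes were called (1.7%), 27 higher (0.793%) and 31 lower (0.911%). Of 23 histones in that class 2 were higher and 2 lower. For the lower 2, Hist1h2bg and Hist1h2bn, the richest WT-CTRL cell gave 59.8% and 47.5% of the UMIs. For the higher 2, Hist1h2ak and Hist1h3i, the richest KO-CTRL cell gave 11.7% and 27.0%. Of 8 p53 targets Ddit4 was higher in that class, at 66.7 CPM in KO-CTRL against 41.2 in WT-CTRL.

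In KO-DOX against WT-DOX, Cxcl10 held 84.0 CPM against 34.4 (1.26), Ifng, the interferon gamma gene, 92.3 against 56.6 (0.69) and Tigit 115 against 72.7 (0.66). Hmgcs1, an enzyme gene of sterol synthesis, held 80.6 CPM against 44.4 (0.85). Gzma held 382 CPM against 863 (−1.17), Klrk1 35.9 against 67.9 (−0.90) and Ccr8, a chemokine receptor gene of regulatory T cells, 17.5 against 39.9 (−1.14), with 31.5% of its WT-DOX UMIs from 1 cell. Il1r2 and Gm15494 were lower by −0.99 and −1.26. Among the genes followed throughout, Gzmb held 115 CPM in KO-DOX against 167 in WT-DOX, Foxp3 17.3 against 27.0 and Pdcd1 48.7 against 47.6.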

How the data were processed

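The deposited files hold whole-number UMI counts per gene and barcode for 4 single-cell libraries, aligned to mm10 per the submitters' processing notes. The counting tool is not given in the sources used here. No normalization had been applied by the authors to these counts. 48597 barcodes were deposited, and 19 failed the filter of 300 genes and 10% mitochondrial UMIs. Doublets were scored but not removed.

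Counts were summed over cells and given as CPM of the summed cells. Shares have exact Clopper-Pearson intervals, ratios of shares 95% log intervals and CPM exact Poisson intervals, all covering counting error only. Sums of Cd8-only and Cd4-only cells were tested with edgeR 4.0.16 (TMM, library as block, limma 3.58.1, R 4.3.3), with DESeq2 1.42.0 as an alternative; SE is the log2 fold over the root of F. Other work used Python 3.11.15, numpy 2.4.6 and scipy 1.17.1. On simulated counts for the class test edgeR called 62% of 100 genes changed 2-fold and all 100 changed 4-fold, among 8603 genes; for the interaction it called 21% and 90% among 11553 genes.

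Named genes were the 12 largest called in each direction for the class test, alike in 4 of 4 libraries, the 8 largest for the interaction, the 6 largest with at least 50 CPM, 10 cells and at most 20% of UMIs from 1 cell for each pair of libraries, the 2 largest called members of each list, and a fixed set of cell cycle and lineage genes. The members and the 35 gene lists were chosen with earlier results of these data known. Alternatives were another scaling, count filters, 3 or 5 rule genes, thinning, cell weights, doublet removal and leaving out each library. A few items are not reported here.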

Additional observations from a re-analysis of the deposited data

Results flagged for a closer look

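The doxorubicin ratio of the cycling share differed between genotypes by its counting interval: the KO ratio over the WT ratio was 1.51 in all T cells (1.15 to 1.99) and 1.77 in Cd8-only cells (1.19 to 2.65), and 1.07 in Cd4-only cells (0.660 to 1.74). After thinning to 2000 UMIs, with the classes set again, these were 1.56 (1.06 to 2.29), 1.91 (1.04 to 3.52) and 2.05 (0.796 to 5.27). The classes are thus not shown to differ in it. With 1 library in a group this difference was not tested between mice. 2 genes named in both doxorubicin comparisons moved in opposite directions in the genotypes: mt-Cytb had a log2 fold of 0.64 in WT and −0.66 in KO mice, and Egr1 one of −1.11 in WT and 0.85 in KO mice, differences that were not tested. When cells were weighted equally the mt-Cytb fold in WT mice was 0.27. The Cd8-only to Cd4-only difference of 1310 genes was unlike in cycling cells and in T cells with no rule gene by the edgeR interaction test. Outside the T cells, 27 barcodes had at least 4 rule genes, 16 of them with a Cd79a UMI and 11 with no Cd3 UMI.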

How the results depend on the processing

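Of 113 recomputed main results, 92 stayed near the main value. That meant a share ratio or phase share inside the main interval, a class difference within 1 SD, or a count of called genes within 1.5-fold. The direction of the genes was not part of it for counts. The interaction with no filter on low counts was among the 92, though its split moved to 670 higher and 663 lower. The Cd8-only minus Cd4-only cycling share was −0.636 points after thinning to 2000 UMIs and −5.72 points with classes set by 2 UMIs. Class genes numbered 875 with DESeq2 and 1108 to 1560 without 1 library, and interaction genes 674 to 928 without 1 library. Without the library as replicate block the class test called 1745 genes and the interaction 1090, and the block changed no named gene of the class test. No paired analysis was possible because each group is 1 library in the comparisons between libraries. Called genes for doxorubicin in WT mice numbered 194 with a filter of 5 CPM, 44 with one of 50 CPM and 252 when cells were weighted equally. For doxorubicin in KO mice the counts were 108, 13 and 108, for the knockout without doxorubicin 153, 15 and 187, and for the knockout with doxorubicin 174, 26 and 139 under the same 3 settings. Without cells of both Cd4 and Cd8 UMIs, a setting added after the data were seen, KO-DOX against WT-DOX had 159. In KO-CTRL against WT-CTRL Hist1h2bb and Hist1h2bg then reversed, to log2 folds of 0.21 and 0.0014; 1 WT-CTRL cell had given 42.9% and 32.2% of their UMIs. In KO-DOX against KO-CTRL Hist1h4a and Mt1 reversed to 0.036 and 0.065 when cells were weighted equally. The causes of the other changes were not tested. Of 999 values of single genes between libraries 116 lost their call, of 539 in the class and interaction tests 46 did, and of 936 list medians 51 moved. Of 288 subset shares 147 moved, since thinning and a need for 2 UMIs lower them.

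Depth limits the comparisons within classes, with 49 to 91 Cd4-only and 71 to 105 Cd8-only cycling cells in a library, where 1 cell gave up to 59.8% of the UMIs of a called list member in either class. Cycling cells are 5.70 to 6.20 times as deep as other T cells, so shares of cells with a UMI differ in sensitivity between them. Intervals cover counting error only, and the spread between mice is unknown.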

Other observations

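Among cells with a UMI of a beta chain variable segment (Trbv), Trbv3 was found in 16.4% of cycling Cd4-only cells on average over libraries, against 11.8% of Cd4-only cells with no rule gene, and was higher in 4 of 4 libraries. In Cd8-only cells Trbv20 was found in 6.72% against 2.63% and was higher in 4 of 4, while Trbv13-3 was found in 2.87% against 7.34% and was lower in 4 of 4. These segments were picked after their values were seen and have no test.

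MHC class II genes were concentrated in a few cycling Cd8-only cells. At least 5 UMIs of these genes were found in 18 cycling cells of WT-DOX, 11 of WT-CTRL, 14 of KO-DOX and 7 of KO-CTRL, of which 17, 10, 12 and 6 were Cd8-only. Those cells held 91.8 to 96.8% of the class II UMIs of cycling cells. The B cell marker list, which includes Cd74 and class II genes, summed to 837 CPM in cycling cells of WT-DOX, 569 in WT-CTRL, 772 in KO-DOX and 474 in KO-CTRL, with Ms4a1 and Igkc at 0.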
